A study of Mus musculus with 12 samples.

Results

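Contractile genes and the genes that serum response factor is known to control were followed in cultures of mouse hippocampal cells that had received a mimic of the microRNA miR-148a-3p. The list held 41 of the 48709 genes in the count files. It was made up of 11 smooth muscle contractile genes, 23 broadly expressed regulators of actin filaments, Srf itself, and 6 matricellular or YAP-linked genes. The members were chosen by their known roles together with the difference between mimic and control libraries in these same data, so the differences below describe the list and carry no weight as a test of it.

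Both groups were primary hippocampal cultures from embryonic day 17 CD1 embryos, kept for 10 days in vitro before treatment and harvested 48 h later, on day 12. The 6 control cultures received a negative control RNA in lipid nanoparticles and the 6 mimic cultures received the miR-148a-3p mimic in the same carrier, and per the study's methods apolipoprotein E4 was added to both. The labels call the cells neurons, whereas hippocampi of several embryos were pooled and the cultures hold glia as well, with no sort for a cell type. Neuronal and astrocyte markers were abundant in all 12 libraries, whereas markers of blood vessel cells ranged from clearly measured to absent, as given at the end. Library totals ranged from 20018234 to 37149112 counts, with control replicates 1 and 2 the shallowest. The labels do not say that the samples of a group came from separate preparations, so p-values measure only the spread between these samples. The libraries were made from poly(A) RNA and do not measure the mature microRNA, so the delivery of the mimic could not be checked in them. A lower value in a whole culture can come from fewer cells of a type or from less RNA per cell, and these cannot be told apart here.

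Serum response factor (SRF) is a transcription factor that binds the CArG box, a short element of promoters. With myocardin-related cofactors, which enter the nucleus when free actin monomers become scarce, it drives genes of the actin cytoskeleton. With ternary complex factors such as ELK1 it drives immediate early genes. In smooth muscle and in contractile fibroblasts this programme includes smooth muscle actin, transgelin and calponin, and transforming growth factor beta (TGF-beta) is a known inducer. YAP and its TEAD partners respond to the same mechanical cues and share several targets with SRF, among them the matricellular CCN proteins. In the healthy brain smooth muscle genes belong mostly to the walls of vessels.

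The applied RNAs are shown first because 7 members hold matches to the mimic. The sequences come from the study's list of oligonucleotides, in which the entry for a negative control of mimics is assumed to be the one used here, as the series text speaks of a siRNA. They run 5′ to 3′ with bases 2 to 8, the seed through which a microRNA pairs with a transcript, in capitals. The mimic was identical to the RefSeq sequence of mouse miR-148a-3p.
miR-148a-3p mimic: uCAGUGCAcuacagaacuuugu
negative control: uCACCGGGuguaaaucagcuug

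Seed matches were sought in the longest annotated 3′ UTR of each gene, as TGCACTG, which pairs with bases 2 to 8 of the mimic, and as GCACTGA, which pairs with bases 2 to 7 and ends in an A. Either is called a site. Of the 41 members 7 held a site (17.1%), against 18.9% of all 21037 genes with a 3′ UTR and 21.9% of the tested ones, so sites were no more frequent among the members than elsewhere. The 7 were Cnn1, Tpm2, Synpo2, Cnn2, Flna, Pdlim7 and Fhl1. The sites of 3 genes are printed, with build mm10 and the strand of the transcript, because calponin 1 (Cnn1), beta-tropomyosin (Tpm2) and calponin 2 (Cnn2) had the largest decreases of the calponins and tropomyosins and each holds a site. Capitals mark the match.
Cnn1, chr9:22108442-22108469, plus strand: gcccgaaggaaGCACTGAgttgagctgt
Cnn1, chr9:22109130-22109157, plus strand: gcatgcggtgTGCACTGgttctactggg
Tpm2, chr4:43515716-43515743, minus strand: ctatctaccaTGCACTGAcctccacccc
Tpm2, chr4:43515629-43515656, minus strand: tccctttcaaaGCACTGAttcactcctg
Tpm2, chr4:43515529-43515556, minus strand: cagaccctccTGCACTGcactcccagcc
Cnn2, chr10:79995278-79995305, plus strand: cacgggccccTGCACTGccagaaaatgt
No match of these kinds was found in the 3′ UTRs of Acta2, Tagln, Myl9, Ccn5 or Thbs1, which were also much lower in mimic. Among the 38 members that could be tested, 5 of the 7 with a site were lower in mimic, and so were 18 of the 31 without one. Over all tested genes 19.2% of those with a site and 10.8% of those without one were lower.

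Of the 41 members, 38 had 5 or more counts in 6 or more libraries and were tested with all other genes. In mimic 23 of them were lower and 4 were higher at an adjusted p under 0.05 in edgeR's quasi-likelihood test, and 11 were not called. Without mimic replicate 1 only 2 were higher, as Fhl2 and Tgfb1i1 lost their calls. Over all 18847 genes tested, 22.2% were called, 10.7% lower and 11.5% higher. Since the list was chosen with this contrast in view, nothing is read from the gap between those shares. The median log2 fold change, mimic over control, was -0.21 over the members and -0.01 over all genes tested. For 14 members every mimic library lay below every control library, and for 3 every one lay above, where 5.83% and 7.43% of all tested genes did so. A log2 fold change of at least 1 in size accompanied 7 of the members' calls, against 1.32% of all genes tested. The list divided by role. Of 9 tested smooth muscle genes 7 were lower and 1 was higher, with a median of -1.17, whereas of 23 broadly expressed regulators 11 were lower and 3 were higher, with a median of -0.12. The smooth muscle median lay 1.05 log2 units further down, a gap of medians that stayed between -1.11 and -1.02 in all 16 alternative analyses.

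**Figure D1:**
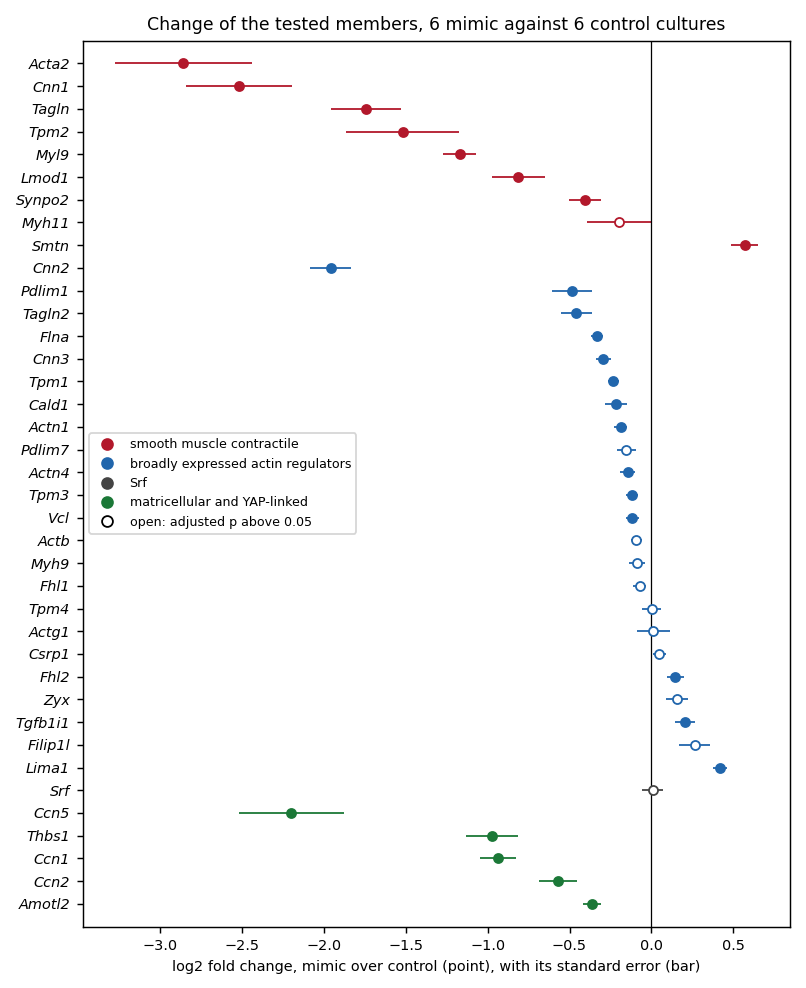
Log2 fold change, mimic over control, of the 38 tested members (horizontal axis) with its standard error as a bar, ordered within the 4 groups of genes. Filled points had an adjusted p under 0.05. Smooth muscle genes (red) and matricellular genes (green) reach from -0.20 to -2.86 apart from Smtn at 0.57, while the actin regulators (blue) other than Cnn2 lie between -0.48 and 0.42.

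The actin isoforms are given first. Acta2, which encodes smooth muscle alpha-actin (chr19:34241090-34255590, minus strand), had a lowest, median and highest level of 6.01, 29.3 and 41.8 CPM in control, where CPM is the count scaled to the effective size of the library, and of 2.52, 3.37 and 6.41 CPM in mimic. Its log2 fold change was -2.86 ± 0.42 (SE), a 7.25-fold lower level and the largest change of the list. The groups overlapped through a single pair of libraries, because control replicate 1 at 6.01 CPM lay below mimic replicate 5 at 6.41 CPM, and all other control libraries were at 19.9 CPM or more. Without control replicate 1 the log2 fold change was -3.05. The cytoplasmic beta-actin gene Actb, at 1046 to 1147 CPM in control and 980 to 1048 CPM in mimic, differed by -0.09 ± 0.03 and was not called, although it was called lower with DESeq2 and without control replicate 1 or 2. Actg1, the gene of cytoplasmic gamma-actin, was given only 2.02 to 2.85 CPM in the 12 libraries, with a log2 fold change of 0.01 ± 0.10. That level is uncertain. Of the distinct 50-base words of its transcripts, the length of a read, 37.4% also occur in transcripts of 23 other annotated genes. How reads with several matches were counted is not given in the sources used here. Most of its words are not shared, and whether the sharing accounts for so low a level was not tested. Enteric smooth muscle actin, Actg2, never exceeded 4 counts in a library and was not tested.

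Transgelins and calponins are related actin-binding proteins with a smooth muscle form and wider forms. The smooth muscle form had the largest estimated decrease in both families. Among the calponins that order is uncertain, as the wider form Cnn2 (-1.96 ± 0.13) came close to Cnn1 (-2.52 ± 0.33). Tagln, transgelin or SM22 (chr9:45929619-45936058, minus strand), ran from 28.6 through a median of 50.8 to 71.9 CPM in control and from 11.6 through 13.9 to 19.1 CPM in mimic, with no overlap and a log2 fold change of -1.74 ± 0.21. Its widely expressed relative Tagln2 had 16.7, 22.2 and 24.0 CPM in control and 13.1, 15.8 and 18.8 CPM in mimic, a log2 fold change of -0.46 ± 0.10 with overlapping groups. Per length of exon, Tagln held a median of 70.0% of the pair's level in control libraries and 50.0% in mimic libraries. The share ran from 64.3 to 77.0% in control and from 40.8 to 55.5% in mimic, so that the groups were apart. The kit does not mark strand and Tagln shares 108 exon bases, 5.43% of its exon length, with Pcsk7 on the opposite strand, so a few of its reads may belong there. A further 62.4% of its exon length is annotated to the antisense gene Gm48529, which was not among the counted genes.

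Cnn1, calponin 1, a marker of differentiated smooth muscle (chr9:22099216-22109630, plus strand), had 1.21, 2.99 and 4.87 CPM in control and 0.291, 0.534 and 0.684 CPM in mimic. The groups did not overlap and the log2 fold change was -2.52 ± 0.33, on a mean of 52.1 counts per library. Cnn2, calponin 2, which is found in many motile cells (chr10:79988584-79996062, plus strand), had 10.5, 14.2 and 18.7 CPM in control and 3.36, 3.58 and 4.08 CPM in mimic. At -1.96 ± 0.13 it was the 1 broadly expressed regulator with a log2 fold change of at least 0.5 in size, and it resembled the smooth muscle genes more than its own group. Cnn3, the calponin of neural and other nonmuscle cells, went from a median of 245 to 198 CPM, a log2 fold change of -0.29 ± 0.05 without overlap. Since Cnn3 made up most of the family, calponin transcripts per length were 92.4% Cnn3, 6.39% Cnn2 and 1.21% Cnn1 in the median control library. In the median mimic library they were 97.5%, 2.21% and 0.277%. All 3 calponins were thus lower, and the order of their levels was the same in both groups.

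Tropomyosins, which wind along actin filaments, also had their largest decrease in the smooth muscle form, with more noise. Tpm2, beta-tropomyosin, had 0.505, 1.49 and 2.68 CPM in control and 0.232, 0.521 and 0.97 CPM in mimic, with a log2 fold change of -1.52 ± 0.34 and overlapping groups. It averaged 31.7 counts per library, and control replicate 1 was again the lowest control library. Tpm1 fell from a median of 185 to 155 CPM without overlap (-0.23 ± 0.03), and Tpm3 from 60.5 to 56.7 CPM (-0.12 ± 0.04). Tpm4 stood at 36.2 and 35.9 CPM (0.00 ± 0.06) and was not called. Tpm2 was a minor part of the family, with a median of 0.928% of its level per length in control and 0.356% in mimic, against 51.4% and 48.3% for Tpm1. With the length of the longest transcript in place of merged exons the control shares were 0.642% and 59.4%.

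Among the 3 myosin genes only the regulatory light chain was called. Myl9, which encodes the light chain whose phosphorylation triggers smooth muscle contraction (chr2:156775420-156781658, plus strand), had 11.9, 14.4 and 16.7 CPM in control and 5.38, 6.18 and 7.79 CPM in mimic. The libraries of the groups were fully separated, and its log2 fold change of -1.17 ± 0.10 had the smallest standard error of the 5 smooth muscle genes at or beyond -1. Smooth muscle myosin heavy chain, Myh11, was barely present, at 0.495, 0.558 and 0.85 CPM in control and 0.371, 0.533 and 0.703 CPM in mimic. Its log2 fold change of -0.20 ± 0.20 was not called. Nonmuscle heavy chain Myh9 was far higher, at 116 to 146 CPM in control and 117 to 126 CPM in mimic, and was not called either (-0.09 ± 0.05).

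The remaining smooth muscle genes did not move as 1 block. Lmod1, leiomodin 1, an actin nucleator of smooth muscle, had 0.997, 1.37 and 2.00 CPM in control and 0.711, 0.785 and 0.876 CPM in mimic, with no overlap (-0.81 ± 0.16). Synpo2, an actin-bundling protein also called myopodin, had 13.4, 17.6 and 18.5 CPM in control and 10.4, 13.2 and 14.8 CPM in mimic, with overlap (-0.41 ± 0.10). Smtn, smoothelin, a protein of contractile smooth muscle, went the other way, with 3.65, 4.31 and 4.58 CPM in control and 5.18, 6.44 and 6.68 CPM in mimic (0.57 ± 0.08). All mimic libraries lay above all control libraries for Smtn, the only smooth muscle gene called higher. The gene for desmin, Des, the intermediate filament of muscle, had at most 2 counts in any library and was not tested.

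**Figure D2:**
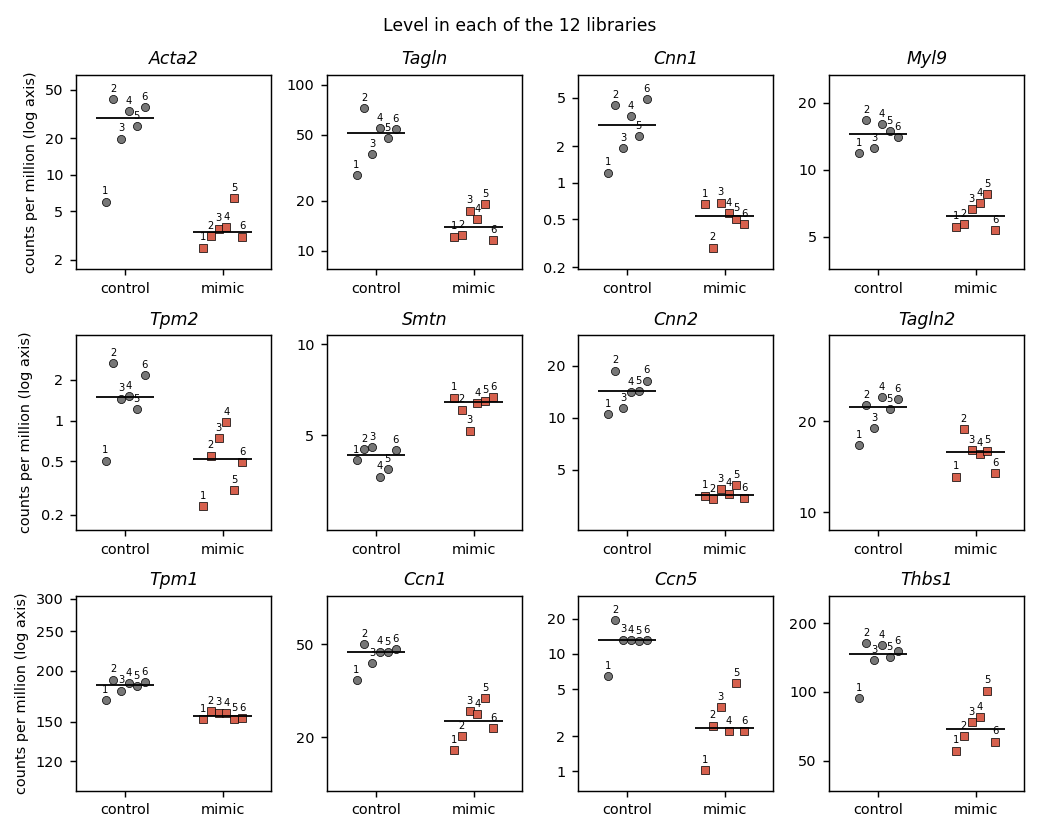
CPM on log axes of 12 members in the 6 control (circles) and 6 mimic (squares) libraries, with the replicate number beside each point and the group median as a line. Control 1 is the lowest control library in every panel but Smtn, and mimic 5 is the highest mimic library for Acta2, Tagln, Myl9, Cnn2, Ccn1, Ccn5 and Thbs1.

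The other broadly expressed regulators changed little in either direction. Flna, filamin A, which cross-links filaments, went from a median of 470 to 385 CPM without overlap (-0.33 ± 0.04). Pdlim1, an adaptor that binds alpha-actinin, went from 5.47 to 3.83 CPM with overlap (-0.48 ± 0.12). The alpha-actinins Actn1 (-0.19 ± 0.04) and Actn4 (-0.14 ± 0.05), caldesmon Cald1 (-0.22 ± 0.07) and vinculin Vcl (-0.12 ± 0.04) were also called lower. Vcl shares 25.5% of its exon length with Ap3m1 on the other strand, and its count may hold reads of that gene. Lima1, an actin-bundling LIM protein also called EPLIN, was the regulator with the largest rise, from 17.4 to 19.7 CPM in control to 23.4 to 25.1 CPM in mimic (0.42 ± 0.04). The focal adhesion adaptor Tgfb1i1 (0.21 ± 0.06) and Fhl2 (0.15 ± 0.05), both LIM proteins as well, were the other members called higher. Zyxin (Zyx, 0.16 ± 0.07), Filip1l (0.26 ± 0.09), Pdlim7 (-0.15 ± 0.06), Fhl1 (-0.07 ± 0.04) and Csrp1 (0.05 ± 0.04) were not called. Of these, Pdlim7 was called lower in 3 of the 12 fits that left out a single library, Fhl1 was called lower without control replicate 1, and Filip1l was called higher without control replicate 3 and without mimic replicate 5. For Zyx control replicate 1 was far above the other controls, at 78.7 CPM against 57.4 to 63.6 CPM, and without that library it was called at 0.23. The calls of Cald1, Vcl, Actn4, Tpm3, Fhl2 and Tgfb1i1 were each lost in 1 to 10 of the 12 fits that left out a single library.

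Level did not separate the members that were much lower from the rest. Per kilobase of exon the control medians ran from 406 CPM for Actb down to 0.0735 CPM for Myh11 among the tested members, and 32 of the 41 members had at least 1 CPM per kilobase. Tagln at 25.6, Acta2 at 13.3 and Myl9 at 12.4 CPM per kilobase were within the range of the broadly expressed genes, next to Tpm1 at 28.5, Actn1 at 20.1, Csrp1 at 15.2 and Zyx at 11.1. Cnn1 at 1.09, Tpm2 at 0.511 and Lmod1 at 0.347 CPM per kilobase were near the bottom of the list, as were Smtn at 0.983 and Filip1l at 0.522. The length used moved some of these levels. Per length of the longest transcript Tagln stood at 31.85, Acta2 at 14.4 and Myl9 at 12.8 CPM per kilobase, whereas Tpm1 stood at 63.9, Tpm3 at 25.5 (9.95 with merged exons) and Cald1 at 18.15 (7.20 with merged exons), and 34 members had at least 1 CPM per kilobase. Variation among the control libraries is given as a description. The coefficient of variation over the 6 controls had a median of 25.5% for the 9 tested smooth muscle genes, with a range of 9.13 to 47.8%, and of 7.54% for the 23 regulators, with a range of 3.32 to 21.5%.

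**Figure D3:**
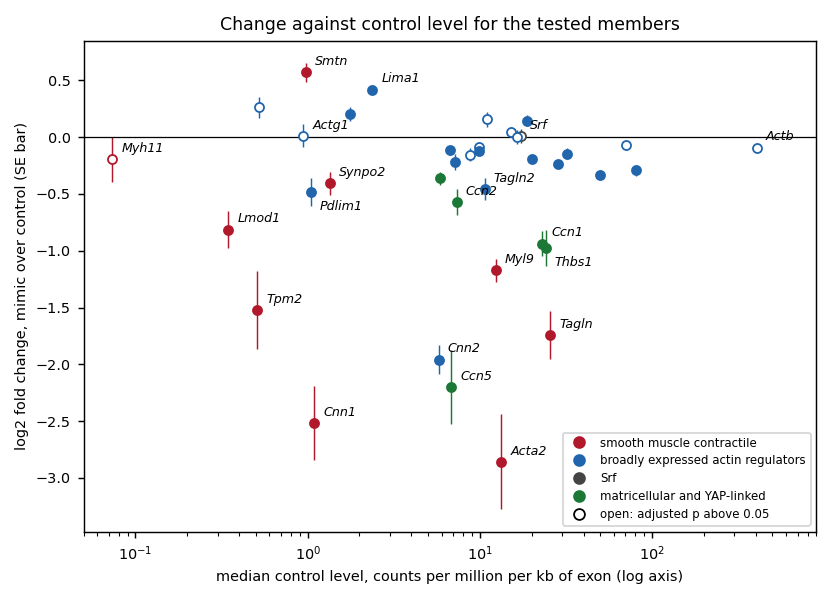
Median control level in CPM per kilobase of exon (log axis) against the log2 fold change, mimic over control, with its standard error, for the 38 tested members. Acta2, Tagln and Myl9 lie at 12.4 to 25.6 CPM per kilobase, a range in which the blue regulators stay between -0.19 and 0.15. Per length of the longest transcript their range also takes in Tagln2 at -0.46 and Cald1 at -0.22.

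Srf itself was not called. Its lowest, median and highest levels were 44.9, 49.9 and 63.8 CPM in control and 50.2, 51.5 and 52.4 CPM in mimic, with a log2 fold change of 0.01 ± 0.06 whose sign turned when single libraries were left out. The mimic libraries lay inside the range of the controls, and the highest control library was replicate 1, the one with the lowest Acta2. Of the 6 SRF cofactors on a list of their own, Myocd, which encodes the smooth muscle cofactor myocardin, had at most 2 counts in any library and was not tested. Of the other 5, 2 were higher and none was lower. The myocardin-related factor gene Mrtfb rose slightly (0.10 ± 0.03, edgeR adjusted p = 0.0226), whereas Mrtfa was not called (-0.05 ± 0.08). The ternary complex factor gene Elk3 went from a median of 15.2 to 20.9 CPM (0.45 ± 0.05, edgeR adjusted p = 1.84e-06), and Elk1 and Elk4 were not called. No lower call was made for the transcripts of Srf or of its 5 tested cofactors. Transcript levels do not measure the entry of cofactors into the nucleus, and the activity of SRF was not tested.

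The promoters of the members were searched for the elements named above, in the RefSeq promoter table (GRCm38.p6), from 250 bases before to 50 bases after each listed start. The table held 33 members, and Actg2, Tagln, Myh11, Actb, Tgfb1i1, Ccn2, Ccn5 and Thbs1 were not in it. A full CArG box, which reads CC, 6 bases of A or T, and GG and matches on both strands at once, was present in at least 1 promoter of 9 of the 33 members (27.3%), against 1.81% of all 27025 genes in the table. Counted by promoter it was 25.6% of the members' 39 and 1.63% of all 32851. Members were chosen for known roles that include control by SRF, so this gap carries no weight as a test. For 6 of these genes 1 box each is printed, in capitals, with the strand of the gene, because genes with the same box differed in direction. Srf holds a second box, CCATAAAAGG at -62 bases from the start, which is not printed with its flanks.
Cnn2, chr10:79988534-79988563, plus strand: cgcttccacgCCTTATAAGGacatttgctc
Lima1, chr15:99820177-99820206, minus strand: ctcactttgtCCTTATAAGGctatcctgtt
Filip1l, chr16:57549170-57549199, plus strand: atgccgcgcgCCTTATAAGGctgagcggtg
Vcl, chr14:20929161-20929190, plus strand: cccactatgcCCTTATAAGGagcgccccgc
Myl9, chr2:156775293-156775322, plus strand: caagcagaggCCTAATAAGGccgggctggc
Srf, chr17:46556225-46556254, minus strand: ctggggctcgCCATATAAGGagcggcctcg
The first 4 share the box CCTTATAAGG, and their log2 fold changes were -1.96 for Cnn2, 0.42 for Lima1, 0.26 for Filip1l and -0.12 for Vcl. In all, the 9 members with a box were lower in 3 cases, higher in 2 and not called in 4. Of the 22 tested members with a promoter but no full box, 16 were lower and 1 was higher. Acta2 was among those with no full box in this short window, though it held a version with 1 mismatch.

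The TEAD word, CATTCC on either strand, was present for 12 of the 33 members (36.4%), against 16.6% of all genes in the table. YAP-linked genes were put on the list by role, so this gap carries no weight as a test either. Of the 11 that were tested, Acta2, Lmod1, Tagln2, Tpm1, Cald1, Vcl, Flna, Actn4, Ccn1 and Amotl2 were lower and Smtn was higher, so every tested member with the word was called, which is a description of a list chosen on this contrast. Of the 20 tested members whose promoters lacked it, 9 were lower, 2 were higher and 9 were not called. Over all tested genes the word made little difference, since 13.1% of genes with it and 11.5% of genes without it were lower, and 14.4% and 12.8% were higher. For the CArG box the shares over all tested genes were 12.9% and 11.7% lower. A match of letters is no proof of binding, and short words occur by chance.

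The matricellular and YAP-linked members were lower throughout. Ccn5, a secreted CCN protein known to restrain smooth muscle growth (chr2:163820861-163833146, plus strand), had 6.51, 13.1 and 19.4 CPM in control and 1.03, 2.33 and 5.63 CPM in mimic, with no overlap and a log2 fold change of -2.20 ± 0.32. Thbs1, thrombospondin 1, a matrix protein that activates latent TGF-beta, had 93.7, 147 and 164 CPM in control and 55.4, 68.8 and 101 CPM in mimic (-0.97 ± 0.16). As for Acta2, the overlap came from 1 pair of libraries, control replicate 1 at 93.7 and mimic replicate 5 at 101 CPM. Ccn1 had 35.2, 46.4 and 50.4 CPM in control and 17.6, 23.5 and 29.3 CPM in mimic without overlap (-0.94 ± 0.11). Its relative Ccn2, known as connective tissue growth factor, had 16.5, 21 and 22.1 CPM in control and 9.93, 13.4 and 18.4 CPM in mimic with overlap (-0.57 ± 0.12). Amotl2, an angiomotin that binds YAP and is itself a YAP target, went from 35.1, 36.7 and 43.0 CPM to 26.9, 28.1 and 31.7 CPM without overlap (-0.36 ± 0.06). All 5 tested genes of this group were lower, with a median of -0.94. Ankrd1, a nuclear protein often used as a readout of YAP, had at most 2 counts in any library and was not tested.

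The same libraries were at the ends of each group for these genes. In control, replicate 1 was the lowest library and replicate 2 the highest for all 5 of Ccn1, Ccn2, Ccn5, Amotl2 and Thbs1, whereas over all tested genes these libraries were the lowest in 30.4% and the highest in 13.9%. In mimic, replicate 1 was the lowest and replicate 5 the highest for the same 5 genes, against 16.6% and 16.1% of all genes. For the 9 tested smooth muscle genes, control replicate 1 was the lowest control library in 6 and control replicate 2 the highest in 6, and mimic replicate 5 was the highest mimic library in 4. Control replicate 1 also stood apart from the other libraries over all genes. On the second principal component, which held 22.7% of the variance, it lay at 26.4 and the other 11 libraries between -11.2 and 10.1, while the first component (43.3%) separated the groups. Without it 25 members were lower and 5 were higher, and the smooth muscle median was -1.21. Its part in the shared pattern was not tested.

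**Figure D4:**
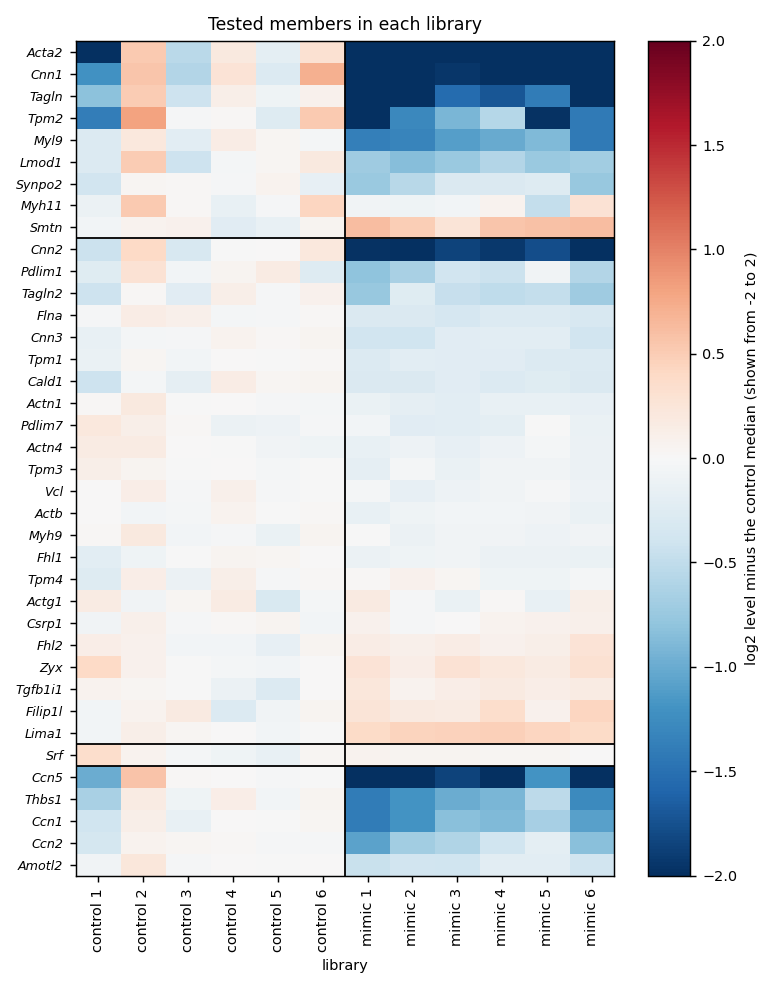
Log2 level (CPM plus 0.1) of the 38 tested members in each library minus the median of the 6 controls, with the scale stopping at -2 and 2, in rows ordered by group of genes and change. The top and bottom rows (smooth muscle and matricellular genes) are blue across the 6 mimic columns and in part in control 1, except that Smtn is red in all 6 mimic columns and Myh11 is above the control median in mimic 4 and 6. Of the middle rows Cnn2 is the darkest.

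Lists of related pathways were tested in the same fit. Over all genes tested 10.7% were lower and 11.5% were higher, which is the background for each list. A few calls in such short lists do not show that the contractile change extended to them. Of 9 immediate early genes that SRF and its ternary complex factors are known to control, 3 were higher and 2 were lower. The neuronal activity gene Arc rose from a median of 12.5 to 19.4 CPM (0.59 ± 0.08, edgeR adjusted p = 6.16e-05) and Egr2 fell from 4.58 to 2.51 CPM (-0.77 ± 0.17, edgeR adjusted p = 0.00312), so these targets of the other branch of SRF did not move 1 way. Of 15 genes of the Hippo pathway and the TEAD factors, 4 were higher and 4 were lower. Tead2 (0.71 ± 0.09) and Yap1 (0.42 ± 0.04) were among the higher ones, and the LIM adaptor Ajuba (-0.74 ± 0.09) and Tead4 (-0.61 ± 0.20, on a mean of 21 counts) among the lower ones. Yap1 went from 31.3 to 33.5 CPM in control to 39.4 to 45.5 CPM in mimic without overlap, in the opposite direction to its commonly used targets Ccn1 and Ccn2.

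Of 10 genes of TGF-beta signalling, 2 were lower and 2 were higher. The ligand gene Tgfb3 (-0.66 ± 0.06) and the receptor gene Tgfbr2 (-0.66 ± 0.06) were lower without overlap, while the receptor gene Tgfbr1 (0.32 ± 0.07) and Smad3 (0.21 ± 0.05) were higher. Tgfb1 and Tgfb2, the other ligands, were not called. Of 7 striated muscle genes 5 were too low to test. Acta1, skeletal actin, was called higher (0.97 ± 0.33, edgeR adjusted p = 0.0447) on a mean of only 11 counts per library.

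Markers of the cell types that could carry smooth muscle transcripts are given beside these results. The summed level of 10 mural cell markers was 48.2 to 67.9 CPM in control and 65.4 to 73.7 CPM in mimic, the opposite direction to the contractile genes (exact permutation p = 0.0108, two-sided, 0.0173 adjusted over 8 marker lists). Most of that level belonged to Notch3, with a median of 26.6 CPM in control and 31.0 CPM in mimic, and Pdgfrb, with 14.3 and 11.8 CPM, and neither was called (0.19 ± 0.07 and -0.18 ± 0.10). Of the 6 tested markers Rgs5 (1.16 ± 0.14) and Cspg4 (0.69 ± 0.09) were called higher and none was called lower. The largest rise in CPM was that of Cspg4, from a median of 9.55 to 16.1 CPM, and Rgs5 went from 2.59 to 5.61 CPM. Cspg4 is also known in oligodendrocyte precursors, so the summed level does not measure mural cells alone. The 4 untested markers, Kcnj8, Abcc9, Higd1b and Cox4i2, were at or near 0 in all 12 libraries. The 11 fibroblast markers summed to 177 to 227 CPM in control and 107 to 241 CPM in mimic (exact permutation p = 0.0584, 0.0779 adjusted). Among them Mgp (-2.07 ± 0.23), Lox (-1.57 ± 0.23) and Ogn (-1.39 ± 0.31) were lower, Slc6a13 was higher (1.19 ± 0.29), and the other 7, among them Col1a1, Col3a1 and Dcn, were not called. Control replicate 1, the control library with the lowest Acta2, was also far the lowest for Ogn at 4.90 CPM (other controls 11.3 to 18.04) and Lox at 5.76 CPM (other controls 10.6 to 16.95), whereas it was the highest for Col1a1 at 55.6 CPM (other controls 37.1 to 51.3). Fibroblast markers thus did not share 1 order over the control libraries. The 10 endothelial markers went from 48.0 to 70.0 CPM down to 29.5 to 52.5 CPM (exact permutation p = 0.00649, 0.013 adjusted), nearly all of it Kdr (-0.64 ± 0.15), with Flt1 also lower (-0.77 ± 0.26), while Cldn5, Tie1 and Ly6c1 were at or near 0.

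The sums of 3 glial lists differed as well, though not every marker in them did. The sum of 10 astrocyte markers was 5176 to 5694 CPM in control and 6278 to 6710 CPM in mimic, with 7 markers called higher and 1 lower. The sum of 7 markers of the oligodendrocyte lineage was 383 to 669 CPM in control and 752 to 946 CPM in mimic, with 4 called higher and 1, Mog, lower (-0.36 ± 0.11). The sum of 4 ependymal markers was 84.1 to 102 CPM in control and 62.4 to 82.2 CPM in mimic, with 3 called lower and Ccdc153 not called (0.01 ± 0.10). Each sum had an exact permutation p of 0.00216, the smallest that the relabellings of 12 libraries allow, and 0.00576 adjusted. Within the astrocyte list Gfap was lower (-0.90 ± 0.08), whereas Slc1a3 (0.99 ± 0.04) and Glul (0.74 ± 0.04) were higher. In the oligodendrocyte lineage the early genes Olig1 (0.96 ± 0.16), Olig2 (0.71 ± 0.06), Sox10 (0.76 ± 0.16) and Pdgfra (0.65 ± 0.12) were higher. The sums of 10 neuronal markers (5784 to 6451 CPM in control, 6055 to 6360 CPM in mimic, adjusted p = 0.665) and of 10 microglial markers (24.7 to 28.6 and 23.0 to 33.9 CPM, adjusted p = 0.833) were not separated by this exact permutation test, although the complement genes C1qa (-0.79 ± 0.14) and C1qc (-0.78 ± 0.15) of the microglial list were lower. The part of any of these cell types in the lower contractile transcripts was not tested.

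**Figure D5:**
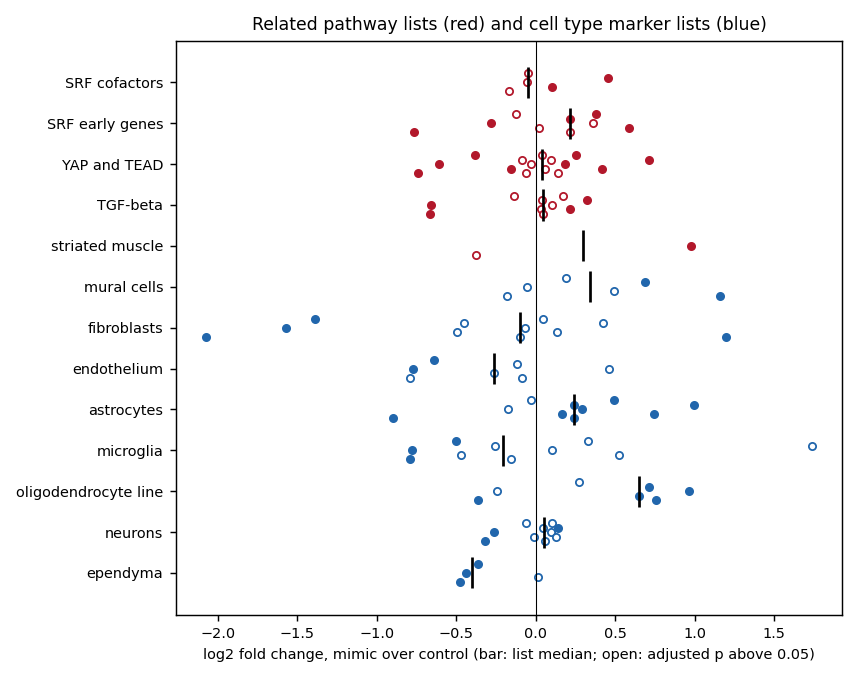
Log2 fold change, mimic over control, of the tested genes of 5 pathway lists (red) and 8 cell type marker lists (blue), with the list median as a bar and filled points for an adjusted p under 0.05. The fibroblast list reaches down to Mgp at -2.07, and the medians of the cofactor and TEAD lists lie within 0.1 of 0.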

How the data were processed

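Gene counts from 12 libraries, 6 control and 6 mimic by their titles, were analysed. Per the labels and the study's methods, the authors sequenced poly(A) RNA as 50 bp single-end reads (TruSeq v2, which does not mark strand), checked them with FastQC 0.11.5, aligned them to mm10 with STAR 2.5.2b and counted reads per gene with featureCounts (Subread 1.5.1). Those raw counts, as deposited, were the input here. The annotation release and the treatment of reads with several matches are not given in the sources used here. The authors' table of normalized values was not used.

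Of 48709 genes, 48349 were named from GENCODE M21. Genes that had 5 or more counts in 6 or more libraries were tested with edgeR 4.0.16 in R 4.3.3 (TMM factors, robust quasi-likelihood test, Benjamini-Hochberg adjustment, threshold 0.05). The steps were tested on simulated data. Levels are CPM on TMM-scaled totals, and levels per kilobase use merged exon length. Marker sums were compared by exact permutation tests, two-sided. DESeq2 1.42.0, RLE factors, no count filter, a replicate block, another exon length and leaving out each library were tried (the family shares by that length were added after seeing the data).

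The members, lists and named genes were chosen with earlier results of these data known. Close relatives of the smooth muscle genes are given by median or range, except Tagln2 and Cnn2. Lowest, median and highest values are given for Tagln2, Srf, tested smooth muscle and matricellular genes, and regulators called at 0.5 or more in log2. Pathway and marker genes are named when called at that size, and a few others were named after their values were seen. Some genes of the lists are not reported here. Searches used the longest 3′ UTR of a coding transcript (GENCODE M21) and the RefSeq promoter table. Read-length words were compared with all GENCODE transcripts on both strands.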

Additional observations from a re-analysis of the deposited data

Results flagged for a closer look

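In 6 of 76 group values of the tested members, where chance flags about 1 in 20 groups and so gives 3.8, the lowest or highest of the 6 libraries lay apart from the others by more than Dixon's 95% limit. Acta2 was highest in mimic replicate 5 at 6.41 CPM, with the other mimic libraries at 2.52 to 3.72 CPM. Zyx was highest in control replicate 1 at 78.7 CPM (others 57.4 to 63.6), and Ccn2 was lowest in the same library at 16.5 CPM (others 20.6 to 22.1). Control replicate 2 was highest for Actn1 at 127.0 CPM (others 108 to 114) and for Amotl2 at 43.0 CPM (others 35.1 to 36.8). Fhl2 was highest in mimic replicate 6 at 43.4 CPM (others 37.8 to 39.7). Control replicates 1 and 2, the shallowest libraries, made up 4 of the 6 cases, and no cause was tested.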

How the results depend on the processing

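The number of members called lower was 19 to 25 and of all genes called 3494 to 5150 over the alternatives, and the smooth muscle and regulator medians kept their sign in each. The number called higher was 4, and 2 to 5 when single libraries were left out, with 2 without mimic replicate 1 as the only change beyond 1.5 times. The sign turned in some leave-one-out fits for 3 members that were not called, Actg1 (-0.047 to 0.052), Tpm4 (-0.038 to 0.032) and Srf (-0.027 to 0.078). Calls of Cald1, Fhl2, Vcl, Actn4, Tpm3 and Tgfb1i1 were lost in at least 1 such fit, and Actb, Pdlim7 and Fhl1 (lower) and Filip1l and Zyx (higher) gained a call in 1 to 3 of them. DESeq2 also called Actb lower. The calls of Tpm3, Cald1 and Vcl were lost without a count filter, and those of Tpm3, Vcl and Actn4 with the replicate block. The cause was not tested. Replicate numbers are shared by the groups, and the deviations of same-numbered libraries had correlations from -0.107 to 0.227, the highest for replicate 1. Replicate 1 was also the lowest library of both groups for the 5 tested matricellular genes. These values do not settle whether the numbers mark pairs. With the replicate block 20 members were lower, 4 were higher and 3659 genes were called. Depth limits Tpm2, Lmod1, Cnn1 and Myh11, which averaged 17.2 to 52.1 counts per library, and Actg2, Des and Ankrd1 could not be tested.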
